A study of Mus musculus with 7 samples.

Results

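The repressors of the two-cell-like state of mouse pluripotent cells were followed as 10 genes chosen by name, Trim28, Setdb1, Atf7ip, Zfp57, Ehmt1, Ehmt2, Kdm1a, Chaf1a, Chaf1b and Rif1, and each was found among the 54838 genes of the count table. Poly-A RNA had been sequenced from 7 mouse cultures grown with serum, LIF and KO-DMEM. M colonies (n = 3) were induced pluripotent stem cells (iPSCs) read as derived from Myc-GFP-positive germinal center (GC) B cells, a reporter of cells that had received help from T cells; the titles do not spell out M, and the Myc-GFP sort is the only source the design names beside bulk cells. GC colonies (n = 3) were iPSCs from bulk GC B cells. V6.5 (n = 1) was an established mouse embryonic stem cell line that had not been reprogrammed, so its origin and its culture history cannot be told apart as sources of a difference. For both colony groups, male mice were immunized with SRBC (sheep red blood cells) for 9 days, splenic B220+ CD38- Fas+ cells were sorted and held with cytokines on embryonic fibroblast feeders for 6 days, and reprogramming genes were switched on with doxycycline for 10 days. After 4 days without the drug, single colonies were picked, passaged on gelatin and pre-plated for 45 min against feeders. No label ties a colony to a donor mouse or gives a strain, batch or date. A p-value here therefore weighs a difference against the spread among these colonies, which may not be separate animals.

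A small share of cultured mouse pluripotent cells passes through a transient state that resembles the embryo at the two-cell stage, in which the transcription factor Dux, the Zscan4 genes and genes driven by MERVL retrovirus repeats are switched on. Most cells are held out of that state by chromatin. KRAB zinc finger proteins bring the corepressor TRIM28 (also called KAP1) to retroviral repeats, TRIM28 recruits the histone H3 lysine methyltransferase SETDB1, and G9a (Ehmt2) with GLP (Ehmt1), the demethylase LSD1 (Kdm1a), the histone chaperone CAF-1 (Chaf1a and Chaf1b) and the telomere and replication-timing protein RIF1 act on overlapping sets of repeats. Loss of several of these proteins in mouse embryonic stem cells is known to raise MERVL-driven or Zscan4 RNA. The counts measure RNA of the repressor genes, not protein or chromatin.

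Libraries held 31139508 (V6.5) to 35728921 (GC colony 1) counts, and members held 2469 (Chaf1a, V6.5) to 78491 (Trim28, GC colony 1) counts per library. Levels are given as CPM, counts scaled to library size with TMM factors over the 7 libraries. All 8 pluripotent cell markers were detected, with summed levels of 5147 to 5687 CPM in M colonies, 5266 to 5457 CPM in GC colonies and 7420 CPM in V6.5, while 8 B cell markers summed to 4.03 to 4.41, 5.65 to 6.46 and 7.20 CPM in the same groups, with 1 of them at 0 in all 7 libraries. Feeder fibroblast markers (11 genes) summed to 642 to 827 CPM in M colonies, 591 to 684 CPM in GC colonies and 430.3 CPM in V6.5. Primitive endoderm markers (8 genes) summed to 560.5 to 964 CPM, 368 to 472 CPM and 109 CPM in the same order, with 560.5 CPM in M colony 2 and 805.7 and 964.3 CPM in M colonies 1 and 3. In M colonies 2 and 3, 5 single-copy Y-linked genes summed to 0 counts in each, against 4368 counts in M colony 1, 3822 to 4800 in GC colonies and 754 in V6.5. The same M colonies stand apart in the sum of the germline list, which includes the pluripotent cell marker Zfp42, and in genes given below.

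With all libraries, Ehmt2 passed in the test of M against GC colonies, and Kdm1a and Rif1 in that of colonies against V6.5. The 250 bases before the RefSeq start of Ehmt2 and of Kdm1a are shown (build GRCm38.p6, 5′ to 3′ on the strand of the gene). Ehmt2 was the member called between M and GC colonies, and Kdm1a the one called lower in colonies against V6.5. Ehmt2 has 2 listed starts, at chr17:34898224-34898473 and chr17:34898720-34898969 (plus strand), and Kdm1a 1, at chr4:136602724-136602973 (minus strand). Capitals mark CACGTG, the E-box hexamer bound by MYC with MAX, searched because the sort used a Myc reporter; it reads the same on both strands.
Ehmt2 first start: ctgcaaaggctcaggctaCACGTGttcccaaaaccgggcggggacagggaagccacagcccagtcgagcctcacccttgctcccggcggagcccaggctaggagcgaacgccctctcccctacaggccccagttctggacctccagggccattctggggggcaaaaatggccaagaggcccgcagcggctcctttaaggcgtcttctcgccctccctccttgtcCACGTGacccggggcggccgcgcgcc
Ehmt2 second start: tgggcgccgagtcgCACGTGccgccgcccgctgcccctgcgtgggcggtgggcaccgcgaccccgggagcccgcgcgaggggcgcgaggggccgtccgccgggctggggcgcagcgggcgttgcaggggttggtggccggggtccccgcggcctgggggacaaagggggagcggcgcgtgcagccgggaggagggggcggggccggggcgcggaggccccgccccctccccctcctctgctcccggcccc
Kdm1a: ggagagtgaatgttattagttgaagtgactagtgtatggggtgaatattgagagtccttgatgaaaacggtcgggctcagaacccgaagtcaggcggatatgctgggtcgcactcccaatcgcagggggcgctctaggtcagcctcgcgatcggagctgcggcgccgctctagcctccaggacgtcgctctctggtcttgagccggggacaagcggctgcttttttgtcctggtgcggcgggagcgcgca
The Ehmt2 windows held 2 and 1 CACGTG, and the Kdm1a window none. RefSeq windows were at hand for 9 members, all but Rif1, whose window is therefore not shown. Of the 12 windows of these members 3 held CACGTG (both of Ehmt2 and the one of Chaf1a). The share was 6.0% among 32851 mouse windows of the same length. A match is a run of letters, not a measured site. CACGTG itself holds a CpG, most member windows were richer in CpG than the median window, and the 2 Ehmt2 windows belong to 1 gene. The share among members was not tested against that of all windows. CpG dinucleotides numbered 18 and 36 in the Ehmt2 windows and 21 in that of Kdm1a, against a median of 6.0 over all windows, and 3 to 7 in the 3 windows of Zfp57, fewer than in any other member window.

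Trim28 had the highest level of the members. Per kilobase of merged exon, Trim28 stood at 451 ± 15 CPM per kb in M colonies and 514 ± 28 in GC colonies (SD, n = 3 each), and at 503 in V6.5. Zfp57, a KRAB zinc finger protein best known for guarding methylation at imprinted loci, followed at 86.8 ± 12.8, 81.4 ± 3.2 and 97.3 CPM per kb. Ehmt2 (77.1 ± 18.5, 51.3 ± 2.3 and 46.8) and Kdm1a (59.0 ± 2.1, 65.0 ± 1.6 and 76.0) came next, in that order in M colonies, where the spreads of Zfp57, Ehmt2 and Kdm1a overlapped in turn, and in the other order in GC colonies and in V6.5. Rif1 lay at 30.4 ± 0.8, 32.1 ± 5.0 and 22.9 CPM per kb. Chaf1b (21.6 ± 1.2, 21.3 ± 0.2 and 24.1) and Setdb1 (20.4 ± 0.2, 21 ± 1.2 and 21.9) did not differ beyond their spread in the colonies. Ehmt1 (12.8 ± 0.7, 11.9 ± 0.9 and 11.3) was next, then Chaf1a (10.0 ± 0.4, 9.24 ± 0.81 and 9.34), and Atf7ip had the lowest level (4.50 ± 0.16, 4.76 ± 0.41 and 4.43). Exons of all annotated transcripts were merged, which gives Atf7ip 20726 bases and lowers its value per kb.

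**Figure D1:**
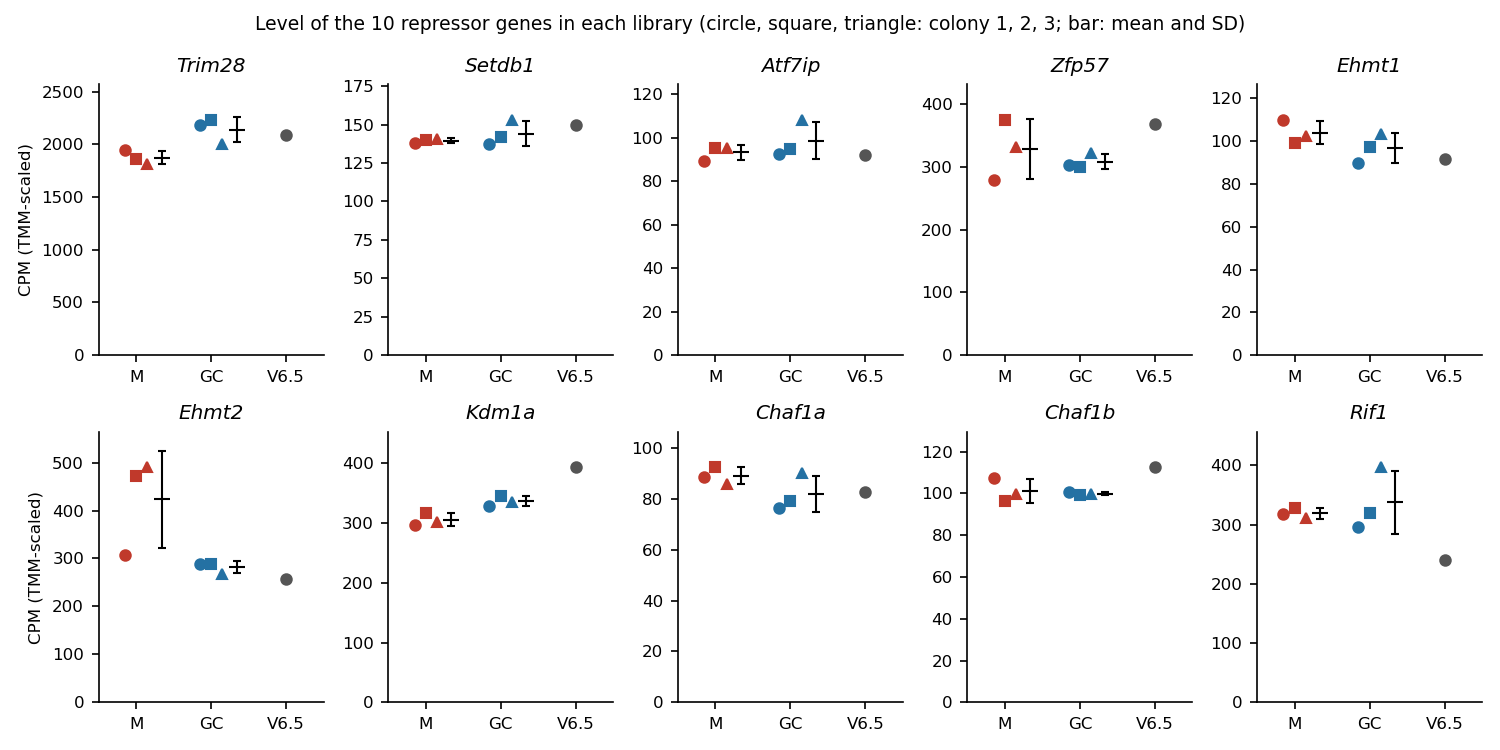
TMM-scaled CPM (vertical axes, from 0) of each of the 10 genes in every library, with M colonies left, GC colonies in the middle and V6.5 right; symbols mark the colony number and the bars the mean and SD of 3 colonies. Ehmt2 in M colonies 2 and 3 (472.4 and 490.6 CPM) stands above the other 5 libraries (256.7 to 306.3 CPM), while Setdb1, Atf7ip, Ehmt1 and Chaf1a overlap between groups.

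The first comparison, M over GC colonies, asked whether the repressor genes differed between colonies of the 2 B cell sources. Of the 10 members 1 passed the test (edgeR quasi-likelihood, Benjamini-Hochberg adjusted p under 0.05 over 18166 genes): Ehmt2, higher in M colonies. The share called over all tested genes was 3.97%, with 1.7% higher and 2.27% lower. At an unadjusted edgeR p under 0.05 there were 3 of 10 members, against 16.6% of all tested genes. The groups did not overlap for 3 members, against 22.1% of all tested genes; Ehmt2 lay above (10.1% of all genes) and Trim28 and Kdm1a below (12%). The median log2 change of the members was -0.02, with 5 positive and 5 negative, and that of all tested genes 0.003.

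TRIM28 is the hub that KRAB zinc finger proteins recruit. Trim28 (ENSMUSG00000005566, GRCm38 chromosome 7 from 12999114 to 13031035) had 1942, 1864 and 1817 CPM in M colonies 1 to 3, against 2178, 2232 and 2006 CPM in GC colonies 1 to 3. The M values were all below the GC values, and the nearest pair, M colony 1 and GC colony 3, differed by less than the spread within GC colonies. The log2 change was -0.19 ± 0.05 (SE), with a 95% interval from -0.31 to -0.08, and the edgeR adjusted p = 0.0679 did not pass. Without GC colony 3 the gene passed (edgeR adjusted p = 0.0107).

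SETDB1 writes the trimethyl mark that TRIM28 recruits it for, and ATF7IP is the partner that stabilizes it and keeps it in the nucleus. Setdb1 had 138.1, 140.2 and 140.7 CPM in M colonies, against 137.2, 141.8 and 153.1 CPM in GC colonies, and Atf7ip had 89.4, 95.1 and 95.1 CPM in M colonies, against 92.7, 94.8 and 108.2 CPM in GC colonies. Both groups overlapped for each gene, with GC colony 3 the highest library. The 95% intervals of the log2 change ran from -0.18 to 0.09 for Setdb1 and from -0.24 to 0.08 for Atf7ip. Setdb1 shares 645 bases at 99.4% identity with the transcript of Gm4349, which held at most 231 counts in a library.

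Zfp57 (chromosome 17 from 37001163 to 37010635) varied most relative to its mean within the M group after Ehmt2, with 278.8, 375.2 and 332.2 CPM in M colonies, against 302.4, 300.0 and 321.9 CPM in GC colonies. The GC values lay inside the M range. The log2 change was 0.09 ± 0.09 (SE; edgeR adjusted p = 0.690), and it turned to -0.02 without M colony 2 and to -0.15 without both M colonies 2 and 3.

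Ehmt1 and Ehmt2 encode GLP and G9a, paralogous H3K9 methyltransferases that work as a heterodimer, and they differed in their pattern. Ehmt2 (ENSMUSG00000013787, chromosome 17 from 34898469 to 34914052) had 306.3, 472.4 and 490.6 CPM in M colonies 1 to 3, against 288.5, 288.6 and 266.9 CPM in GC colonies. M colonies 2 and 3 stood far above every other library, and M colony 1 only just above the highest GC colony. Ehmt2 rose by 0.59 ± 0.13 (SE) on the log2 scale (1.5-fold), with a 95% interval from 0.30 to 0.87 and an edgeR adjusted p = 0.0276. The size of the rise came from 2 of 3 colonies, the same M colonies 2 and 3 that held 0 Y-linked counts; without both, the log2 change was 0.12 (edgeR adjusted p = 0.705, with 1 M library left whose spread was taken from GC colonies). Leaving out M colony 2 (0.0860), M colony 3 (0.163), GC colony 1 (0.0673), GC colony 2 (0.0971) or GC colony 3 (0.0605) put the edgeR adjusted p past 0.05, and leaving out M colony 1 lowered it to 5.52e-05. DESeq2 did not call the gene (adjusted p = 0.0545), while limma-voom did (adjusted p = 0.0437). The call was kept in 5 of the 12 other settings tried. Primitive endoderm markers, higher in sum in M colonies, were lowest within that group in M colony 2 (560.5 CPM) and highest in M colony 3 (964.3 CPM), the colonies with the most Ehmt2, and their part in the level of Ehmt2 was not tested. Ehmt1 had 109.9, 99.3 and 102.5 CPM in M colonies, against 89.5, 97.4 and 103.5 CPM in GC colonies, with overlapping groups and a log2 change of 0.10 ± 0.07 (SE; edgeR adjusted p = 0.558).

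The genes next to Ehmt2 also had their highest levels in M colonies 2 and 3. On chromosome 17 the annotated interval of C2, which covers that of Zbtb12, ends 204 bases before Ehmt2, Zbtb12 ends 1602 bases before it, and Slc44a4 begins 414 bases after it. Zbtb12, a BTB zinc finger gene, had 18.8, 29.9 and 27.1 CPM in M colonies 1 to 3, against 16.6, 16.9 and 16.9 CPM in GC colonies and 15.9 CPM in V6.5. Slc44a4, a choline transporter family gene, had 12.4, 21.9 and 21.6 CPM in M colonies, against 14.8, 15.3 and 12.1 CPM in GC colonies and 10.7 CPM in V6.5. C2, a complement component, had 1.53, 2.46 and 2.35 CPM in M colonies, against 1.47, 1.49 and 1.38 CPM in GC colonies, and V6.5 was close to the higher M values at 2.28 CPM. In each of these 3 genes M colonies 2 and 3 were the highest libraries. Zbtb12 passed the M against GC test (log2 change 0.58 ± 0.14, SE; edgeR adjusted p = 0.0423), whereas Slc44a4 (0.310) and C2 (0.372) did not by the same adjusted p. Farther out, the M values of Nelfe, Skiv2l, Lsm2 and Vars overlapped or lay close to the GC values, and Neu1, which also passed (edgeR adjusted p = 0.0233), was highest in M colonies 1 and 3 (56.4 and 66.2 CPM, with 50.8 CPM in M colony 2, against 39.2 to 45.3 CPM in GC colonies). Among 48 tested protein-coding genes within 500000 bases of Ehmt2, M colonies 2 and 3 were the highest libraries in 6 (12.5%; Ager, Hspa1b and Hspa1a besides the 3 adjacent genes), against 6.35% of all 14673 tested protein-coding genes and 8.50% of those of chromosome 17. Of the 48, Zbtb12 and Neu1 rose and Notch4 and Ly6g6e fell in M colonies by the same test. The neighbours were examined after the values of Ehmt2 were seen. Without a stated strand setting, reads of genes that overlap on opposite strands cannot be told apart.

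**Figure D2:**
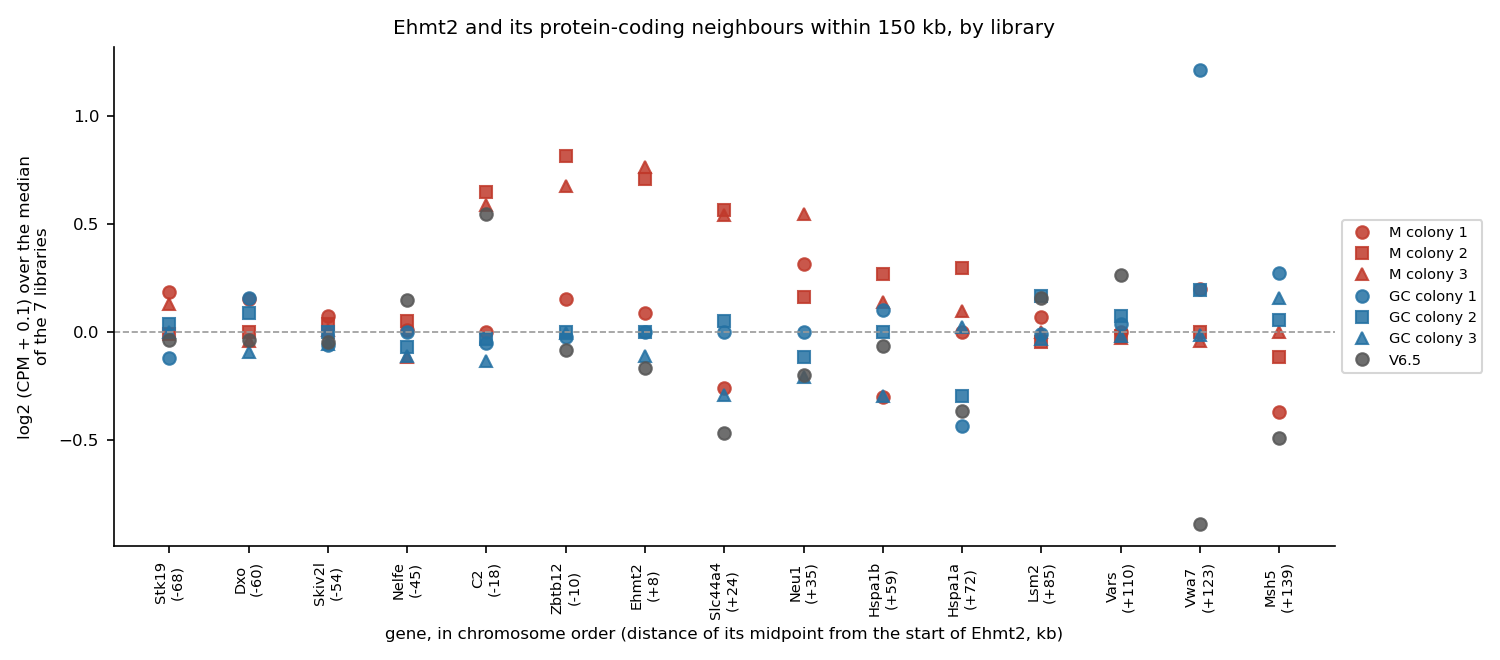
Log2 of (CPM + 0.1) over the median of the 7 libraries (vertical axis) for Ehmt2 and the 14 tested protein-coding neighbours from -68 kb to 139.2 kb with a mean of at least 1 CPM, in chromosome order with the distance of the gene's midpoint from the start of Ehmt2 in kb. M colonies 2 and 3 lie at 0.54 to 0.82 in C2, Zbtb12, Ehmt2 and Slc44a4, and near 0 in Nelfe (-45.1 kb) and Lsm2 (85.4 kb).

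Ehmt2 had the widest range of the members over the 7 libraries. The 5 genes with the most similar pattern over those 7 libraries, out of the 20502 tested, were Zbtb12, Dio3os, Nr3c1, the glucocorticoid receptor gene, Ggct, a glutathione cycle enzyme, and Sfn, a stratifin gene, with Pearson r of 0.973 to 0.981 in log2 CPM. Sfn had 91.8, 122 and 120.4 CPM in M colonies, against 93.6, 84.2 and 80.5 CPM in GC colonies, and Dio3os was below 1 CPM in every library. These likenesses are a description of 7 libraries that share their scaling, with no test.

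LSD1, the product of Kdm1a, removes methyl groups from H3K4 within the CoREST complex. Kdm1a (ENSMUSG00000036940, chromosome 4 from 136550540 to 136602723) had 296.7, 317.5 and 302.4 CPM in M colonies, against 328.7, 345.2 and 335.4 CPM in GC colonies. The groups did not overlap, by a narrow margin. The log2 change was -0.14 ± 0.06 (SE; edgeR adjusted p = 0.214).

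CAF-1 deposits H3-H4 behind the replication fork, and Chaf1a and Chaf1b encode its large and middle subunits. Chaf1a had 88.6, 92.4 and 85.8 CPM in M colonies, against 76.3, 79.2 and 89.9 CPM in GC colonies, and Chaf1b had 107.4, 96.3 and 99.6 CPM in M colonies, against 100.8, 99.4 and 99.5 CPM in GC colonies. Both genes overlapped between the groups, with log2 changes of 0.12 ± 0.07 and 0.01 ± 0.06 (SE). Chaf1a shares 4648 exon bases with Ubxn6 on the opposite strand; Ubxn6 held 319 counts at most, and the level of Chaf1a is uncertain where reads fall in the shared stretch. S phase replication genes, measured beside CAF-1, showed no called change in 17 tested (2 at an unadjusted edgeR p under 0.05, and 0 by DESeq2 or limma-voom).

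RIF1 sets the timing of late replication and is known to hold down Zscan4 in mouse embryonic stem cells. Rif1 (ENSMUSG00000036202, chromosome 2 from 52072832 to 52122383) had 318.2, 327.9 and 310.6 CPM in M colonies, against 295.9, 319.9 and 397.1 CPM in GC colonies. All M values lay inside the GC range, which GC colony 3 widened. The log2 change was -0.09 ± 0.09 (SE; edgeR adjusted p = 0.712) and turned to 0.05 without GC colony 3.

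**Figure D3:**
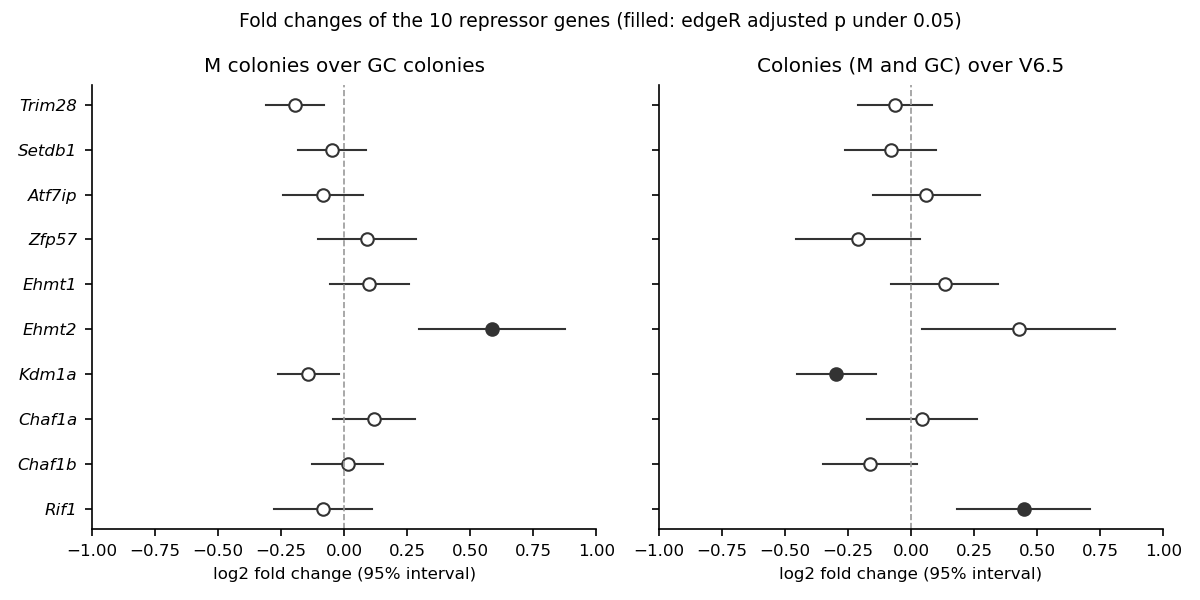
Log2 fold change (horizontal axis) of the 10 genes with its 95% interval, for M over GC colonies (left) and for the mean of both colony groups over V6.5 (right); filled points had an edgeR adjusted p under 0.05. Ehmt2 (0.59) is the filled point on the left, and Kdm1a (-0.30) and Rif1 (0.45) are those on the right.

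Partners of these repressors were counted from 7 lists of 69 genes. The lists held heterochromatin factors around SETDB1 and TRIM28, the HUSH complex, G9a and GLP partners and LSD1-CoREST partners. The others were CAF-1 partners with H3-H4 chaperones, the Polycomb complex PRC1.6 and the SUMO pathway. Between M and GC colonies edgeR called 0 of 69, against 3.97% of all tested genes. At an unadjusted edgeR p under 0.05 there were 10 of 69, against 16.6% of all tested genes. DESeq2 called 4 and limma-voom 0. The median log2 change of the 69 genes was -0.014. The most abundant gene of each list gives the scale: Uhrf1, which brings DNMT1 to newly replicated DNA, had 480.2 ± 22.4 CPM in M colonies and 484.3 ± 27.7 CPM in GC colonies (SD, n = 3 each). Mphosph8, the HUSH reader of H3K9 methylation, had 112.2 ± 11.8 and 110.1 ± 9.7 CPM in the same groups. Hdac1 had 259.6 ± 29.9 and 283.3 ± 10.6 CPM, and the histone chaperone gene Nasp had 763 ± 23 and 766.5 ± 67.3 CPM. Wdr5, of PRC1.6 and other complexes, had 250.2 ± 11.4 CPM in M colonies and 253.8 ± 5.2 CPM in GC colonies, Uba2, a subunit of the SUMO E1 enzyme, 561.7 ± 17.8 and 540.6 ± 22.7 CPM, and Zfp518b, a G9a partner, 94.8 ± 13.2 and 99.1 ± 6.1 CPM.

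Two-cell-like genes were lower in M colonies than in GC colonies. Of 27 two-cell-like activators and targets, chosen with these results known, 18 fell in M colonies and 0 rose by edgeR, with a median log2 change of -0.87. Among all tested genes 1.7% were called higher and 2.27% lower. Between the same colonies 2 of 8 pluripotent cell markers, Pou5f1 and Klf4, rose in M colonies and 0 fell by edgeR. Pou5f1 had 491.3 ± 12.4 CPM in M colonies and 373.7 ± 3.4 CPM in GC colonies (SD, n = 3 each). Klf4 had 516.7 ± 51.3 and 391.6 ± 10.0 CPM in the same groups. Of the 8, 4 had a positive and 4 a negative log2 change, with a median of -0.015. Nanog, not called, was lower in M colonies (410 ± 41.4 CPM, against 483.8 ± 6 CPM in GC colonies). The number of the 8 called was 1 without GC colony 2 and 3 with DESeq2 or limma-voom. It was 4 without the low-count filter or with the colony number as a block. The primitive endoderm genes Cubn (312.4 ± 87.6 CPM in M colonies, against 149 ± 23 CPM in GC colonies) and Dab2 (240.3 ± 57.7 CPM, against 129.5 ± 17.0 CPM) rose too, 2 of 8 markers; the number of the 8 called was 7 without M colony 2, 6 without both M colonies 2 and 3 and 3 without GC colony 1. The part of these markers in the two-cell-like difference was not tested. The 27 two-cell-like genes summed to 645, 839 and 702 CPM in M colonies 1 to 3, against 1158, 1235 and 1193 CPM in GC colonies. The 10 members summed to 3675, 3880 and 3777 CPM in M colonies, against 3890, 3998 and 3882 CPM in GC colonies. The member sum is mostly Trim28, and the two-cell-like sum includes Dppa2, which changed less than the median of its list. Within the M group the two-cell-like sum was lowest in M colony 1 and highest in M colony 2. Tdpoz4 had 0.470 ± 0.064 CPM in M colonies and 4.23 ± 0.45 CPM in GC colonies, Gm2016 15.2 ± 3.1 and 35.8 ± 3.3 CPM, and Tmem92 14.1 ± 2.1 and 30.9 ± 3.1 CPM (SD, n = 3 each). Dux (annotated as Duxf3) had 2.29, 3.02 and 3.11 CPM in M colonies, against 3.11, 3.57 and 5.05 CPM in GC colonies, and did not pass (edgeR adjusted p = 0.349). In bulk RNA, fewer cells in that state and less RNA per such cell cannot be told apart. Of 12 germline genes known as targets of SETDB1, PRC1.6 or LSD1, Ddx4 rose in M colonies (49.5 ± 7.8 CPM, against 34.4 ± 0.5 CPM in GC colonies) and Tuba3a fell (21.5 ± 2.8 CPM, against 37.1 ± 4.4 CPM in GC colonies). Leaving out M colony 2, M colony 3 or GC colony 2 left 1 of these germline calls, and leaving out both M colonies 2 and 3 left 0. The 12 genes summed to 611.5, 468.5 and 431.7 CPM in M colonies 1 to 3, against 645.4 to 670.6 CPM in GC colonies and 580.6 CPM in V6.5. Zfp42, counted in this sum, is also among the pluripotent cell markers, so the sum is not of germline genes alone.

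**Figure D4:**
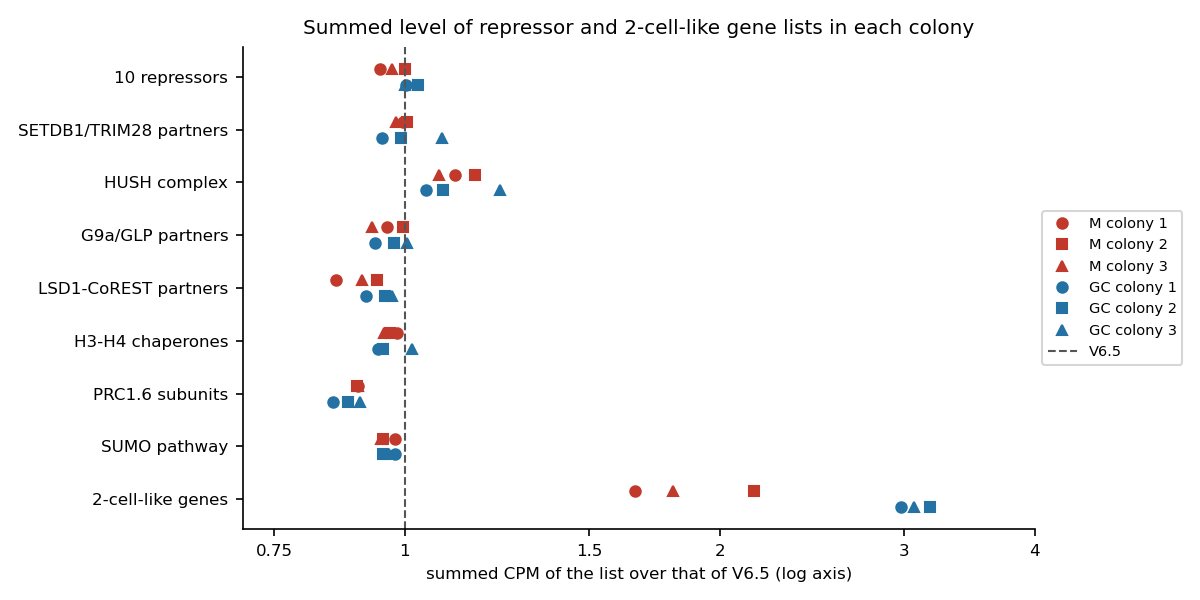
Summed CPM of each gene list in every colony divided by that of V6.5 (horizontal log axis), with M colonies drawn above GC colonies in each row and V6.5 as the dashed line at 1. The sum of the 10 repressors lies between 0.947 and 1.03, whereas that of the two-cell-like genes lies at 1.66 to 2.16 in M colonies and 2.98 to 3.18 in GC colonies. Abundant genes weigh most in a sum. The repressor sum is mostly Trim28, while Ehmt2 alone stood at 1.84 and 1.91 in M colonies 2 and 3 and Rif1 at 1.65 in GC colony 3. The two-cell-like sum includes Dppa2, which differed less from V6.5 than Zscan4d did.

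Colonies were next set against V6.5 to ask whether reprogrammed lines differed from an established line in these repressors. Of the 10 members 1 rose (Rif1) and 1 fell (Kdm1a) in the mean of both colony groups, by edgeR over 20502 genes, of which 16.3% were called (8.76% higher and 7.56% lower). At an unadjusted edgeR p under 0.05 there were 3 of 10 members, against 28.6% of all tested genes. The 6 colonies lay all above or all below V6.5 for 4 members (Ehmt2 and Rif1 above, Kdm1a and Chaf1b below), against 51.4% of all tested genes, 25.7% in each direction. With 1 V6.5 library, its spread was taken to be that of the colonies, and the difference has no replicate check on that side.

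Rif1 had 318.2, 327.9 and 310.6 CPM in M colonies and 295.9, 319.9 and 397.1 CPM in GC colonies, against 240.9 CPM in V6.5. Every colony was above V6.5. Rif1 rose by 0.45 ± 0.12 (SE) on the log2 scale (1.36-fold; 95% interval 0.18 to 0.71; edgeR adjusted p = 0.0236), and the call ended without both M colonies 2 and 3 (edgeR adjusted p = 0.0628) at the same log2 change of 0.45. Kdm1a had 296.7 to 317.5 CPM in M colonies and 328.7 to 345.2 CPM in GC colonies, against 393.6 CPM in V6.5. Every colony was below V6.5, and Kdm1a fell by 0.30 ± 0.07 (SE) on the log2 scale (95% interval -0.45 to -0.14; edgeR adjusted p = 0.0130), a call kept under all 12 other settings tried.

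The other 8 members did not pass against V6.5. Ehmt2 was above V6.5 (256.7 CPM) in all 6 colonies. M colony 1 and the GC colonies stood at 1.04 to 1.19 times V6.5, and M colonies 2 and 3 at 1.84 and 1.91 times. The log2 change of Ehmt2 was 0.43 ± 0.18 (SE, edgeR adjusted p = 0.128). The gene passed in 2 of 12 other settings, without M colony 1 (edgeR adjusted p = 9.83e-04) and without the low-count filter (edgeR adjusted p = 6.56e-05). Chaf1b was below V6.5 (112.6 CPM) in all 6 colonies (96.3 to 107.4 CPM; log2 change -0.16 ± 0.09, SE; edgeR adjusted p = 0.234). Zfp57 was below V6.5 (368.5 CPM) in 5 of 6 colonies (log2 change -0.21 ± 0.11, SE; edgeR adjusted p = 0.245), and passed, as lower, without both M colonies 2 and 3 (edgeR adjusted p = 0.0276). For Trim28 (2092 CPM in V6.5) the 95% interval of the log2 change ran from -0.21 to 0.08, for Setdb1 (150.0 CPM) from -0.26 to 0.10, for Atf7ip (91.9 CPM) from -0.15 to 0.27, for Ehmt1 (91.4 CPM) from -0.08 to 0.34 and for Chaf1a (82.7 CPM) from -0.17 to 0.26.

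Of the 69 partner genes 4 rose and 9 fell in colonies against V6.5, 18.8% in all, close to the 16.3% of all tested genes, so the genes named here are single calls and not a result about the partners as a group. The 13 calls became 5 without GC colony 2, 8 without M colony 3 and 7 without both M colonies 2 and 3. Among heterochromatin factors, Zfp809, a KRAB zinc finger protein that recruits TRIM28 to retroviral primer binding sites, rose 2.16-fold (26.6 to 37.3 CPM in colonies, against 14.5 CPM in V6.5; edgeR adjusted p = 1.40e-04), and Cbx1, which encodes HP1 beta, rose 1.23-fold. Morc2a, an ATPase that works with HUSH, rose 1.26-fold. Among G9a and GLP partners, Zfp518b rose 1.34-fold, whereas Prdm14, a pluripotency factor, fell to 14.4 to 28.8 CPM in colonies, against 48.9 CPM in V6.5 (edgeR adjusted p = 6.68e-04), and Wiz, the zinc finger subunit of the G9a-GLP complex, fell to 63.3 to 82.8 CPM, against 95.8 CPM. Among CAF-1 partners and H3-H4 chaperones, Asf1b (23.5 to 33.7 CPM in colonies, against 44.8 CPM in V6.5), Pcna and Rbbp4, the small subunit of CAF-1, fell. Wdr5, Tfdp1 and Rnf2 of PRC1.6 and the SUMO ligase gene Pias3 fell as well. Of 11 LSD1-CoREST partners edgeR called 0, with 2 at an unadjusted p under 0.05 and 0 by DESeq2 or limma-voom; Hdac1 had 225.6 to 295.6 CPM in colonies, against 293.6 CPM in V6.5. Of 17 S phase genes 5 fell and 0 rose, while 7.56% of all tested genes were called lower. Cdt1 (211.8 to 239.7 CPM in colonies, against 323.7 CPM in V6.5), Mcm5 and Rrm2 led the 5. Without GC colony 2 there were 3 left. All 8 primitive endoderm markers and 5 of 10 tested fibroblast markers rose in colonies, and 7 of 8 pluripotent cell markers fell. The part of these in the changes of Rif1 and Kdm1a was not tested.

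Over the same libraries 24 of 27 two-cell-like genes rose against V6.5 and 0 fell, with a median log2 change of 1.97. Among all tested genes 8.76% were called higher. Zscan4d had 81.1 ± 14.2 CPM in M colonies and 145.3 ± 9.4 CPM in GC colonies (SD, n = 3 each), against 19.5 CPM in V6.5. Dux had 32 counts (1.07 CPM) in V6.5 and rose 3.08-fold in colonies (edgeR adjusted p = 0.0105). Dppa2, an activator of Dux, had 107.7 to 116.6 CPM in M colonies and 129.8 to 150.6 CPM in GC colonies, against 98.3 CPM in V6.5, and passed in both comparisons (edgeR adjusted p = 0.0172, lower in M than in GC colonies, and 0.0272 against V6.5). The M against GC call was lost in 5 of 12 other settings, without GC colony 1 or 2, without M colony 1 or 3 and without both M colonies 2 and 3 (edgeR adjusted p of up to 0.156), and the V6.5 call in 2, without GC colony 2 and without both M colonies 2 and 3. Zscan4 and Usp17l genes are close copies of one another, and the count of any single one is uncertain. Of the 12 germline targets 2 rose against V6.5 (Mael and Taf7l) and 4 fell (Tuba3a, Ddx4, Hormad1 and Dazl). Among all tested genes 16.3% were called in either direction.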

How the data were processed

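The authors deposited whole-number read counts by Ensembl gene, not normalized, for the 7 libraries analysed. STAR 2.7.10a, featureCounts 2.0.6, DESeq2 (no version) and the mm10 build are named in the submitters' processing notes. No source used here gives the strand setting, and the labels disagree on whether the library kit keeps strand. In each library 68.5% to 72.2% of counts from 1 to 49 were even, which was not tested further.

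Names and positions came from GENCODE M21 on GRCm38. Genes were kept by filterByExpr (minimum count 10), scaled by TMM and compared by edgeR 4.0.16 (quasi-likelihood, two-sided, in R 4.3.3), M against GC in 6 libraries and the mean of both colony groups against V6.5 in 7, adjusted over all genes with a threshold of 0.05. SE is the log2 change over the square root of F. The test was checked on simulated counts. DESeq2 1.42.0, limma 3.58.1 (voom), RLE factors, no low-count filter, the colony number as a block, each colony left out and both Y-lacking M colonies left out were the alternatives. Similar patterns use log2 CPM with a prior count of 2. Members, gene lists and these settings were chosen with earlier results of these data known. Besides the members, up to 3 called genes a list with the smallest adjusted p were named, or the most abundant where none was called; other genes named (Dux, Dppa2, Taf7l, Hormad1, Dazl and the neighbours of Ehmt2) were chosen after their values were seen. Transcripts of members were searched against all others for copies of at least 95% identity over 150 bases. The labels do not say that colony numbers pair samples, so the main test did not pair them. Deviations of same-numbered colonies correlated at 0.073, 0.075 and 0.164 over genes, and those of differently numbered colonies at -0.135 to 0.062.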

Additional observations from a re-analysis of the deposited data

How the results depend on the processing

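Between M and GC colonies, edgeR called 721 genes, and 1318 without the low-count filter, 1110 with DESeq2, 373 without both M colonies that lack Y-linked counts and 244 to 814 when 1 colony was left out. The number of members called there, 1 in the test as reported, was 2 without the filter and 2 with the replicate block (Trim28 joined Ehmt2 in both), 0 with DESeq2, 0 without both of those M colonies and 0 to 1 when 1 colony was left out. With the replicate block, 963 genes were called between M and GC colonies and 3648 against V6.5, with 2 members called against V6.5 as before, and every colony correlated best with the colony of its own number, a hint from the data and not from the design. Against V6.5 neither count of calls moved by more than 1.5 times: 2575 to 3718 genes and 2 to 3 members were called when 1 colony was left out. Directions between M and GC colonies turned when 1 colony was left out for Setdb1 (log2 change -0.08 to 0.004) and Rif1 (-0.17 to 0.053), both without GC colony 3, for Chaf1b (-0.029 without M colony 1, to 0.048) and for Zfp57 (-0.015 without M colony 2, to 0.199; -0.146 without both M colonies 2 and 3). The causes were not tested. Of 120 member values under alternatives in each comparison, 105 between M and GC colonies and 116 against V6.5 kept direction and side of the threshold. Members held at least 2469 counts in each library.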
